A study of Mus musculus with 16 samples.

Results

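The axon guidance genes described here are the ligands and receptors of the semaphorin, ephrin, Slit and netrin systems: class 3 to 7 semaphorins with their plexin and neuropilin receptors, ephrins with their Eph receptors, Slits with Robo receptors, and netrins with Dcc and Unc5 receptors. They were chosen by symbol among the genes of the count table, with at least 10 counts required in 2 or more libraries, which gave 69 members out of 24411 genes. Robo3 matched by name but not by count. One member, Plxna4os1, is an antisense transcript annotated within the Plxna4 locus and not a plexin, so it is kept apart below. Of the 69 members, 68 had enough counts to be tested; Ntn5 did not.

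The libraries are bulk RNA-seq of mouse tissue in 5 groups. Celiac ganglia, which are sympathetic ganglia of the abdomen, were dissected from 2-week-old mice. They came from mice without the transgene (MYCN wild-type), with Runx1t1 wild-type (n = 4) or heterozygote (n = 3), and from MYCN homozygote mice with Runx1t1 wild-type (n = 3) or heterozygote (n = 2). The fifth group is tumors of MYCN homozygote, Runx1t1 wild-type mice (n = 4), for which the labels give no age. In this Th-MYCN model the tyrosine hydroxylase promoter drives human MYCN in sympathoadrenal cells, and the heterozygotes carry 1 Runx1t1 allele inactivated by an insertion. The labels give neuroblastoma as the cell type of every sample, ganglia included. The design asks how far ganglia carrying MYCN had moved toward tumors by 2 weeks, and whether loss of 1 Runx1t1 copy changed that. No source says which libraries came from separate animals, so p-values measure the spread between these samples, which may be partly technical.

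Axon guidance cues steer growth cones by attraction or repulsion. Class 3 semaphorins are secreted and signal through neuropilins, which bind the ligand, and A plexins, which signal, whereas most membrane-bound semaphorins bind plexins directly. Ephrins are anchored in the membrane of the neighboring cell and bind Eph receptor tyrosine kinases, so that both cells can signal. Slits repel through Robo receptors, and netrins attract through Dcc or repel through Unc5 receptors. Sympathetic neurons and the neural crest cells they come from use semaphorin 3A and 3F with neuropilins to gather into ganglia and to lay out their axons, and several of the same families also pattern blood vessels.

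Several libraries stood apart, and these facts bear on the values below. Total counts ran from 10692299 to 38618757, 6 of 12 ganglia lay under 20000000, and all 4 tumors lay above it. Transgene-free wild-type replicate 2 held 697 TPM (transcripts scaled to a fixed library sum) of summed lymphocyte markers, against at most 7.26 in the other 6 transgene-free libraries, and the lowest sympathetic neuron sum of the 7 (9218 TPM). Albumin stood at 2497 TPM in tumor replicate 3. The Y-linked gene Ddx3y was at 16.45, 20.19, 18.24 and 0 TPM in the tumors, in replicate order. It was at 33.04 TPM in transgene-free wild-type replicate 2, 30.99 in transgene-free het replicate 4 and 28.35 in Runx1t1 wild-type MYCN replicate 4. The other ganglia held at most 0.17 TPM, so sex, read from this gene, was not balanced between the groups. The ganglion label held, since the sympathetic neuron markers summed to 9218 to 25753 TPM in transgene-free ganglia, beside 651 to 2392 TPM for 10 glial markers and 1730.1 to 7976 TPM for 8 fibroblast markers. In tumors the same sums were 3588 to 5752, 42.5 to 52.1 and 234 to 572 TPM, with the glial genes S100b and Gfap below 0.5 TPM in every tumor, while 5 cell cycle genes summed to 1044 to 1206 TPM against 25.0 to 201 TPM. Without transgene-free wild-type replicate 2 the transgene-free sums were 16044 to 25753 TPM for neuronal, 1532 to 2392 TPM for glial and 25.0 to 48.1 TPM for cell cycle markers. Runx1t1 itself was at 4.36 to 6.28 TPM in transgene-free ganglia labelled het and 2.78 to 4.41 TPM in those labelled wild-type, at 8.83 and 16.9 against 7.90 to 70.3 TPM in the MYCN ganglia, and at 29.5 to 55.8 TPM in tumors, so its RNA did not separate the Runx1t1 labels.

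Levels of different genes were compared in TPM, which takes length into account. Plxna4, an A plexin that carries semaphorin 3A signals with Nrp1, had the highest mean of the members in transgene-free ganglia, at 147 ± 47.8 TPM (SD, n = 7). It was followed by Nrp1 (118 ± 25.6 TPM), the main neuropilin for semaphorin 3A, and the membrane semaphorin Sema6d (116 ± 28.4 TPM). Plxnd1 (93.1 ± 8.07 TPM), the receptor of semaphorin 3E, then Slit3 (79.5 ± 14.7 TPM), Efna5 (75.2 ± 19.4 TPM), Nrp2 (71.3 ± 14.9 TPM), Sema4d (70.6 ± 13.6 TPM), Sema3b (64.7 ± 24.0 TPM) and Epha5 (62.3 ± 22.8 TPM) completed the 10 highest, and no pair of neighbors in this order differed by more than the larger of their SDs. The order in tumors was another. Nrp2, the neuropilin that binds semaphorin 3F, came first at 123 ± 26.9 TPM (SD, n = 4), then Plxnb2, a B plexin that binds class 4 semaphorins, at 106 ± 15.3 TPM, then Slit2 at 65.2 ± 21.9 TPM. Plxna1 (48.7 ± 6.59 TPM), Plxnd1 (40.1 ± 21.4 TPM), Slit3 (39.7 ± 21.8 TPM), Efnb3 (31.1 ± 4.80 TPM), Ephb2 (31.0 ± 6.81 TPM), Plxna4 (30.3 ± 13.7 TPM) and Plxna3 (25.3 ± 5.07 TPM) followed. Among neighbors in this order only Plxnb2 and Slit2 differed by more than the larger SD. Members with a mean of at least 50 TPM numbered 11 of 69 in transgene-free ganglia, 10 in Runx1t1 wild-type MYCN ganglia, 13 in Runx1t1 het MYCN ganglia and 3 in tumors, and those at 1 TPM or more numbered 63, 66, 63 and 57.

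Summed by class, the repertoire also differed between tumors and ganglia. Membrane semaphorins summed to 349 to 448 TPM in transgene-free ganglia and 110.1 to 157 TPM in tumors. Plexins summed to 368 to 510.2 TPM in transgene-free ganglia and 263 to 307 TPM in tumors, EphB receptors to 95.8 to 127 TPM in transgene-free ganglia and 36.6 to 56.1 TPM in tumors, and netrin receptors to 61.0 to 116 TPM in transgene-free ganglia and 18.6 to 37.2 TPM in tumors. These classes lay lower in every tumor than in every transgene-free ganglion. Neuropilins, EphA receptors, B ephrins, Robos and netrins overlapped: B ephrins summed to 56.5 to 82.9 TPM in transgene-free ganglia and 53.0 to 79.3 TPM in tumors. A sum follows its most abundant genes, and the scale of TPM itself shifted between the groups.

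**Figure D1:**
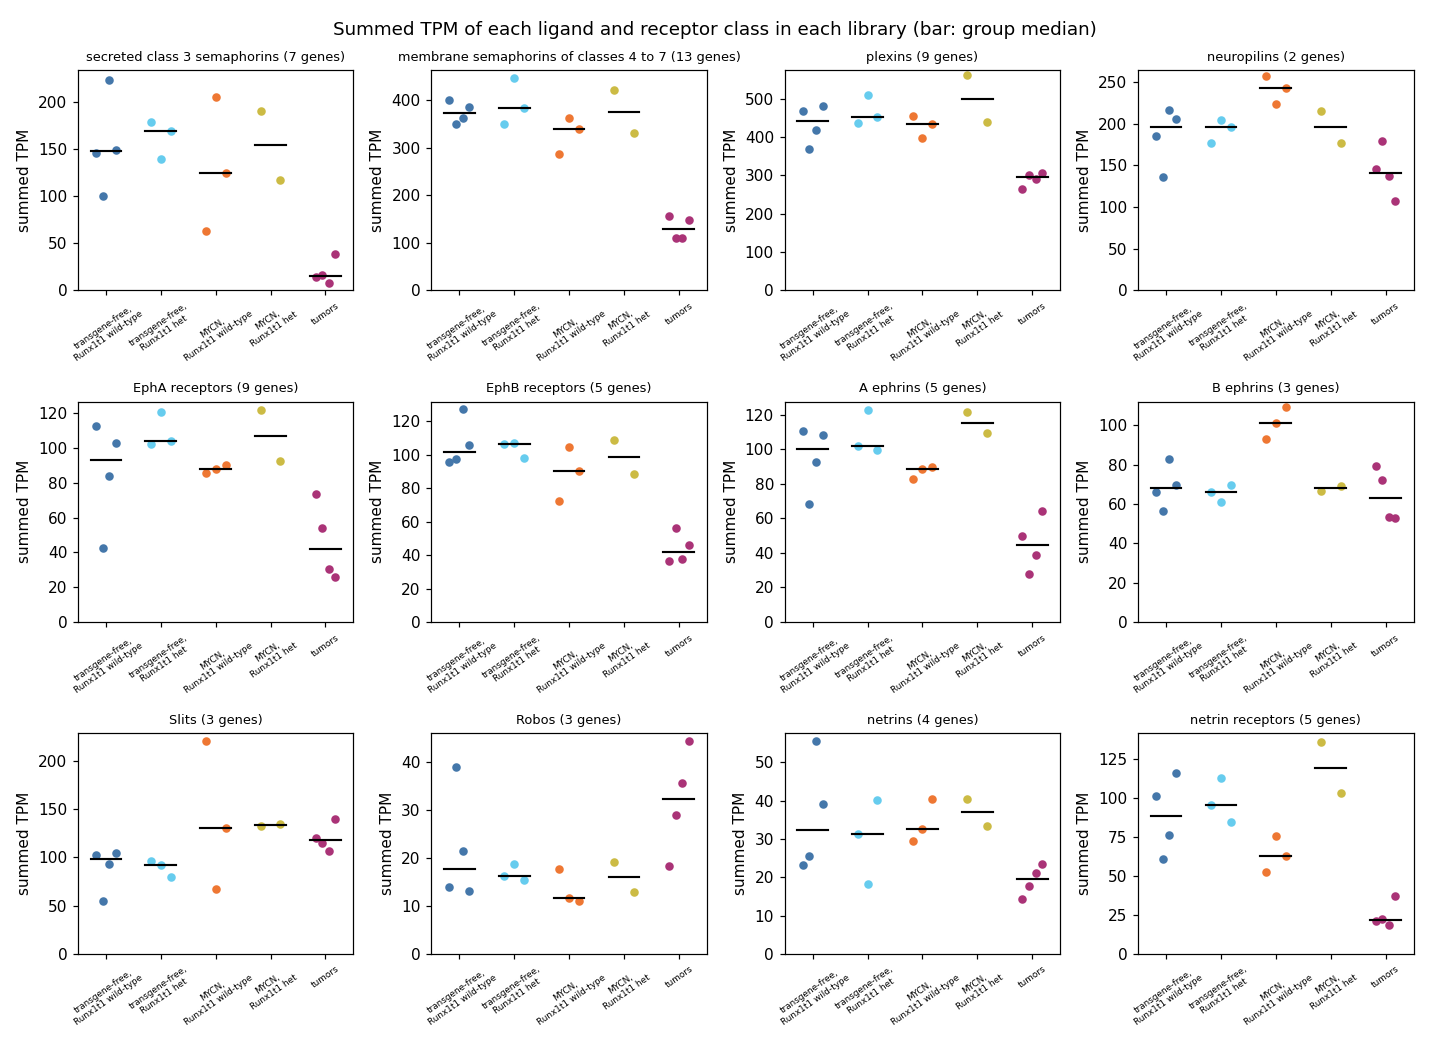
Summed TPM (vertical axes, from 0) of the genes in each of 12 ligand and receptor classes, with 1 point per library in 5 groups and a bar at the group median. Class 3 semaphorins sum to 7.69 to 38.4 TPM in the 4 tumors against 99.5 to 223 TPM in the 7 transgene-free ganglia, whereas the Slits sum to 106 to 139 against 54.3 to 105 TPM.

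Tumors were first compared with the 7 transgene-free ganglia. Of the 68 tested members, 44 passed an adjusted p of 0.05 in edgeR, 17 higher in tumors and 27 lower. This comparison called 61.4% of all 16665 genes tested, 30.6% higher and 30.9% lower, so the share of members called was close to that of all genes, and their median log2 fold change was -0.61 against -0.06 over all genes. In counts scaled to library size, the libraries did not overlap for 13 members above and 24 below, against 22.7% and 21.5% of all genes. On log2(TPM + 1) with limma, where the median of all genes shifted to -0.35, the split was 13 higher and 35 lower, where limma called 19.4% of all genes higher and 42.1% lower. In bulk tissue, fewer cells of a type and less RNA per cell cannot be told apart, which applies to each difference that follows. The sums of glial, fibroblast and neuronal markers given above moved with this comparison (9 of 10 glial, 7 of 8 fibroblast and 11 of 16 neuronal markers lower, and 0, 1 and 3 higher), and their part in the results was not tested.

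**Figure D2:**
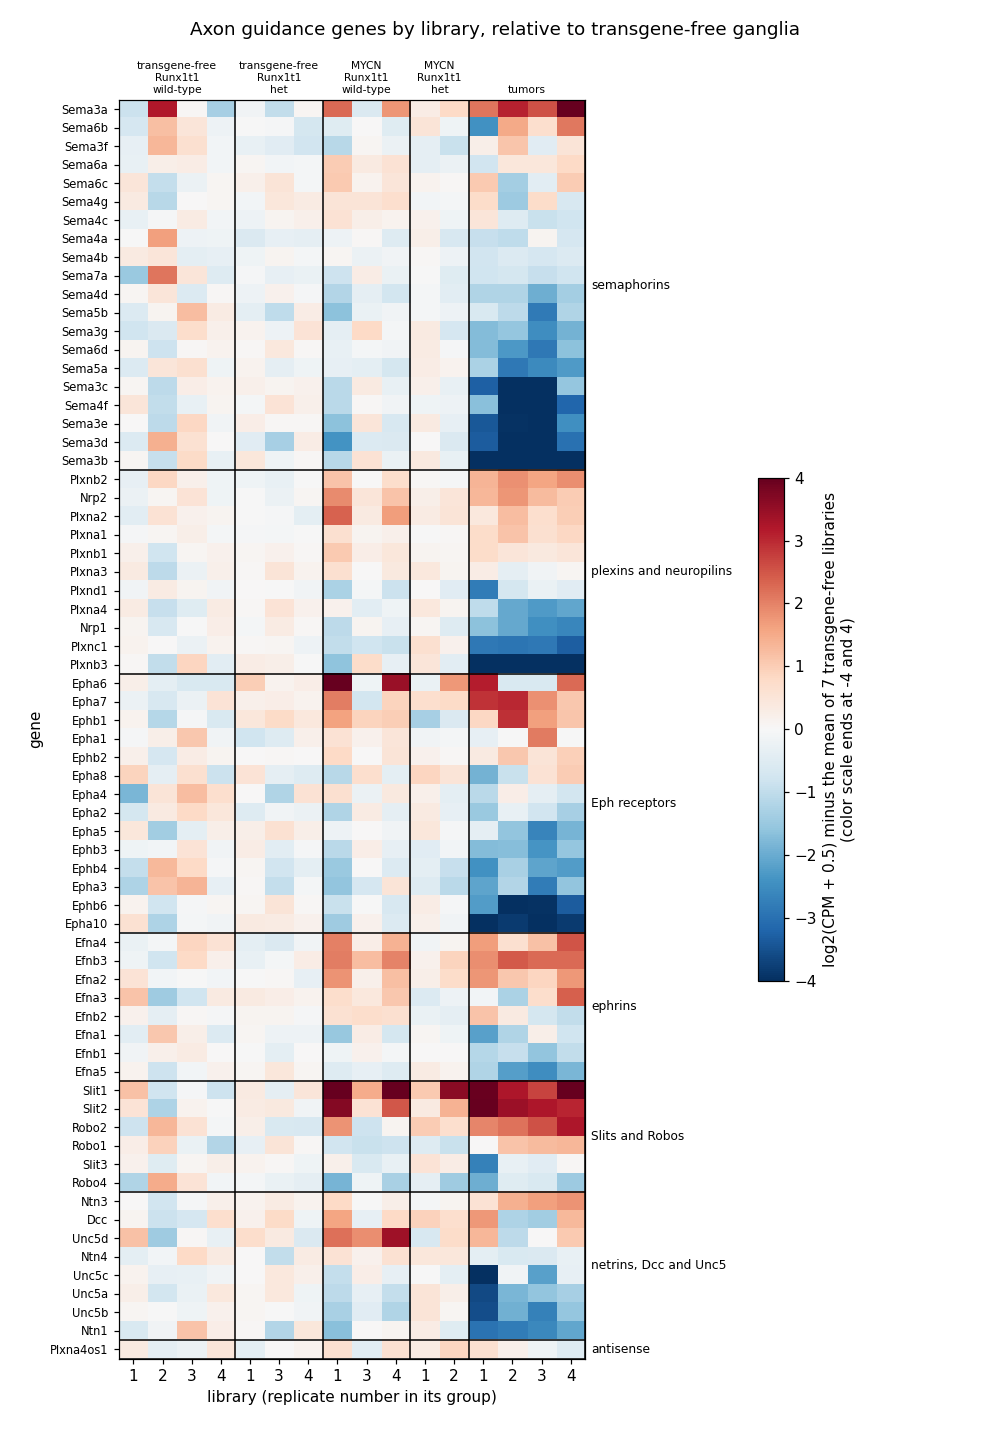
Each row is 1 of the 68 tested genes, grouped by family and sorted by fold change in tumors, and each column is 1 of the 16 libraries. Color gives log2(CPM + 0.5) minus the mean of the 7 transgene-free libraries, ending at -4 and 4. Most semaphorin rows turn blue in the tumor columns, and the Slit1 and Slit2 rows are red in tumors and in Runx1t1 wild-type MYCN replicates 1 and 4.

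The semaphorins were mostly lower in tumors. Of 20, 11 were lower, 1 was higher and 8 did not pass, with a median log2 fold change of -1.29. Among the 7 secreted class 3 members, 5 were lower. Sema3b (chr9:107597674-107609229, GRCm38), a secreted repellent, ran from 45.3 through a median of 90.6 to 148 CPM (counts scaled to a common TMM-corrected library size) in transgene-free ganglia, and was at 3.38, 2.94, 0.178 and 1.80 CPM in tumor replicates 1 to 4. No tumor came near a ganglion, and the log2 fold change ± SE of -5.48 ± 0.66, adjusted p = 1.1e-05, corresponds to a 44.5-fold lower level. Sema3d (chr5:12383385-12588948), a guidance cue for neural crest and endothelial cells, ran from 8.55 through a median of 22.2 to 59.8 CPM in the ganglia and was at 1.75, 0.537, 0.856 and 2.36 CPM in tumors (log2 fold change ± SE of -4.11 ± 0.61, adjusted p = 5.3e-05). Sema3e (chr5:14025276-14256689), the Plxnd1 ligand, ran from 6.68 through a median of 14.6 to 25.4 CPM in ganglia and was at 0.893, 0.452, 0.285 and 2.16 CPM in tumors (log2 fold change ± SE of -3.99 ± 0.63, adjusted p = 9.2e-05). Both were lower in every tumor than in every transgene-free ganglion. Sema3c and Sema3g were also lower (log2 fold changes of -3.03 and -2.08).

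Sema3a (chr5:13125414-13602565), the classic growth cone collapsing factor, went the other way. Its CPM was 7.38, 14.5, 9.96 and 58.2 in tumors, 0.480, 16.1, 1.34 and 0.207 in transgene-free wild-type and 1.12, 0.407 and 1.37 in transgene-free het ganglia. The groups overlapped through transgene-free wild-type replicate 2, the library rich in lymphocyte markers, and tumor replicate 4 was the highest of all. The log2 fold change ± SE of 3.44 ± 1.00, adjusted p = 0.0084, fell short of the threshold without tumor replicate 4, at 2.35 (adjusted p = 0.058). Sema3f (chr9:107681500-107710475), which repels through Nrp2, did not pass: it was at 5.59, 10.7, 3.28 and 7.02 CPM in tumors and ran from 2.54 through a median of 3.76 to 12.6 CPM in transgene-free ganglia (log2 fold change ± SE of 0.49 ± 0.40, adjusted p = 0.3). Of the 13 membrane-bound members, 6 were lower (Sema4b, Sema4d, Sema4f, Sema5a, Sema5b and Sema6d, with log2 fold changes from -3.17 to -0.66) and none was higher. The 7 that did not pass were Sema4a, Sema4c, Sema4g, Sema6a, Sema6b, Sema6c and Sema7a. Sema7a (chr9:57940112-57962865), a lipid-anchored semaphorin that binds Plxnc1, was at 4.78, 5.11, 4.32 and 4.77 CPM in tumors against 2.72 to 39.1 in transgene-free ganglia (log2 fold change ± SE of -1.15 ± 0.54, adjusted p = 0.079). It passed in DESeq2 (adjusted p = 0.043), with a sex term (-1.35, adjusted p = 0.042), with only libraries of 20000000 counts or more (-0.74, adjusted p = 0.039) and without transgene-free wild-type replicate 1 or 4, at -1.31 (adjusted p = 0.018) and -1.28 (adjusted p = 0.048).

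The semaphorin receptors divided. Of 11 plexins and neuropilins, 5 were higher in tumors, 4 were lower and 2 did not pass. Plxnb3 (chrX:73757090-73772514), a plexin known from oligodendrocytes, had the lowest log2 fold change of the members in edgeR, whereas on log2(TPM + 1) Sema3b was lower (-4.99 against -3.54 for Plxnb3). It ran from 13.4 through a median of 28.3 to 49.4 CPM in transgene-free ganglia, and was covered by only 5, 13, 1 and 10 reads in tumor replicates 1 to 4, or 0.194, 0.367, 0.0357 and 0.281 CPM (log2 fold change ± SE of -6.99 ± 0.67, adjusted p = 2.2e-06). The glial, fibroblast and neuronal marker sums given above fell with it, and their part was not tested. Plxnc1 (chr10:94790866-94944835) was at 17.5, 16.9, 17.5 and 12.7 CPM in tumors against 109.9 to 144 CPM in the 7 transgene-free ganglia (log2 fold change ± SE of -3.01 ± 0.15, adjusted p = 3.5e-08). It had the smallest standard error of the members that were more than 8-fold lower, and its spread within both groups was narrow. Plxna4 (chr6:32144268-32588192) ran from 380.5 through a median of 818 to 1049.5 CPM in ganglia and was at 358, 174, 152 and 170.0 CPM in tumors (log2 fold change ± SE of -1.85 ± 0.31, adjusted p = 0.00013), so that its highest tumor lay just under its lowest ganglion.

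Plxnb2 (chr15:89155549-89180788) and Plxna1 (chr6:89316314-89362620) were higher in tumors. Plxnb2 was at 306, 423, 356 and 429.9 CPM in tumors and ran from 93.1 through a median of 104 to 211 CPM in transgene-free ganglia (log2 fold change ± SE of 1.66 ± 0.23, adjusted p = 2.6e-05). For Plxna1 the tumor values were 224, 299, 214 and 240.4 CPM and the ganglia ran from 127 through a median of 131 to 161 CPM (log2 fold change ± SE of 0.85 ± 0.12, adjusted p = 4.8e-05). In CPM, every tumor exceeded all 12 ganglia for both genes and for Robo2, and no other member did so, where 14.4% of all genes did. In the other direction, also in CPM, 22 members lay below all 12 ganglia in every tumor, where 16.1% of all genes did. The separation above did not hold in TPM, where Runx1t1 wild-type MYCN replicate 1 reached the tumors for Plxnb2, Plxna1 and Robo2. It was at 86.57, 49.75 and 12.43 TPM, against 85.62, 44.38 and 11.66 TPM in the lowest tumor of each gene. Plxna2 and Plxnb1 were also higher (log2 fold changes of 0.86 and 0.49), but both overlapped in TPM. Plxna2 was at 7.57 to 13.12 TPM in tumors and 5.64 to 10.6 TPM in transgene-free ganglia. Plxnb1 was at 23.65 to 28.65 and 12.31 to 27.31 TPM, with group means of 25.1 and 24.1 TPM. Plxna3 (chrX:74329066-74344689), on the X chromosome, did not differ detectably (-0.09 ± 0.23, adjusted p = 0.77), nor did Plxnd1 pass (-0.79 ± 0.36, adjusted p = 0.071).

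The neuropilins moved in opposite directions. Nrp1 (chr8:128358604-128503363) ran from 179 through a median of 283 to 346 CPM in transgene-free ganglia and was at 89.0, 66.9, 50.6 and 45.4 CPM in tumors (log2 fold change ± SE of -2.17 ± 0.27, adjusted p = 1.3e-05). Nrp2 (chr1:62703285-62818695) ran from 139 through a median of 163 to 239 CPM in the same ganglia and was at 415, 565, 396 and 330.5 CPM in tumors (log2 fold change ± SE of 1.36 ± 0.23, adjusted p = 0.00016). Neither gene overlapped between the groups in CPM. In TPM, Nrp2 did, at 102.73 in transgene-free wild-type replicate 3 and 93.86 in tumor replicate 4. Within a library, the ratio of Nrp2 to Nrp1 in TPM, which no scaling between libraries can change, was 0.415 to 0.991 in transgene-free ganglia, so Nrp1 was the larger in all 7. In tumors the ratio was 4.30 to 7.89. Among MYCN ganglia it was 4.25, 0.786 and 1.61 for Runx1t1 wild-type replicates 1, 3 and 4, and 0.674 and 1.17 for the het replicates 1 and 2. Wild-type replicate 3 and het replicate 1 thus lay inside the transgene-free range and the other 3 between that range and the tumors.

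**Figure D3:**
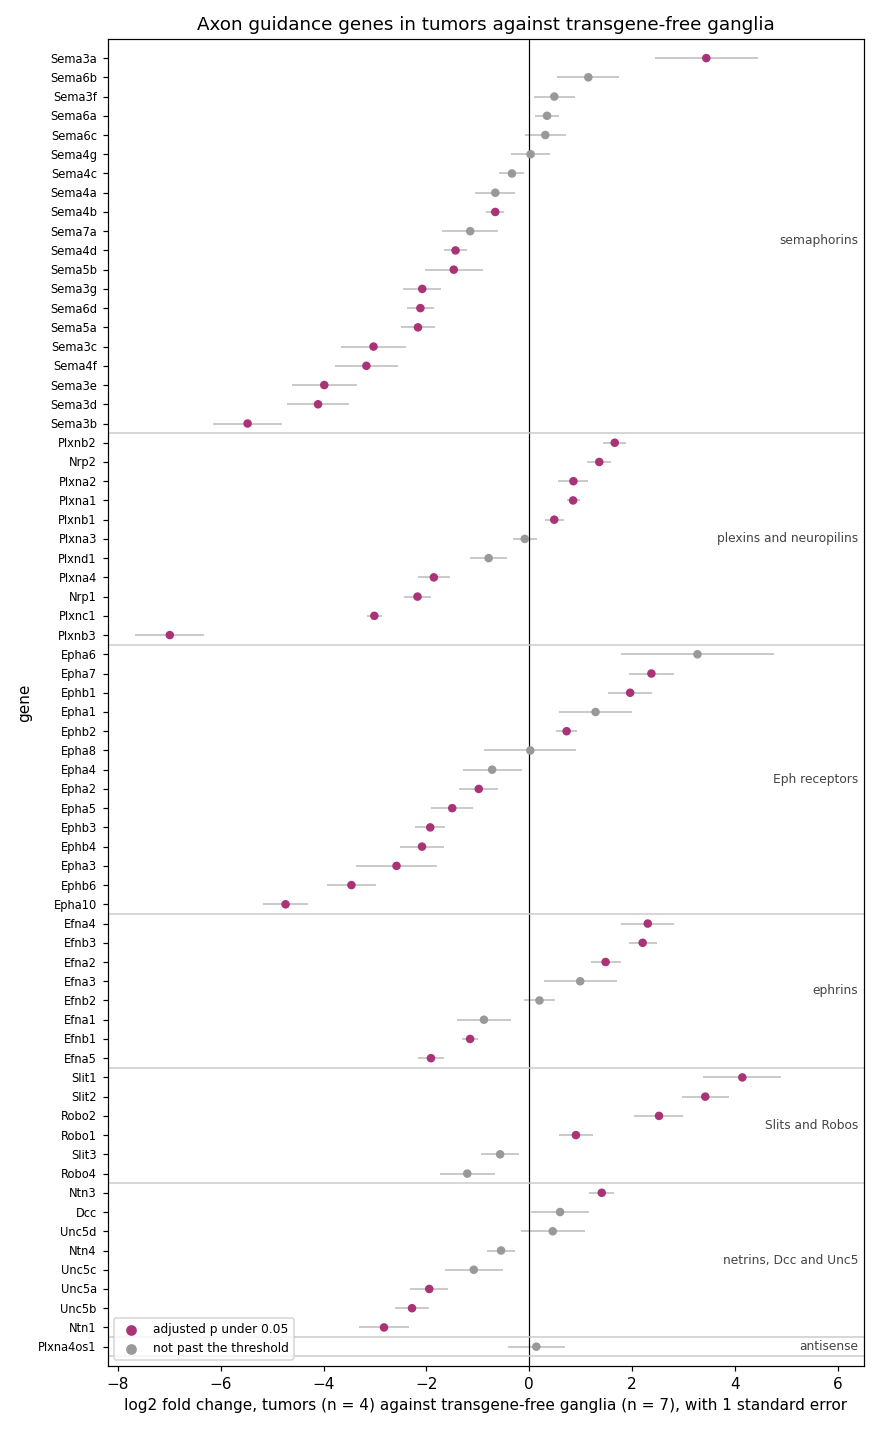
Log2 fold change of each of the 68 tested genes in the 4 tumors against the 7 transgene-free ganglia (horizontal axis), with bars of 1 standard error, grouped by family. Colored points passed an adjusted p of 0.05. The range runs from -6.99 for Plxnb3 to 4.14 for Slit1, and no Slit or Robo gene that passed lies below 0.

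Of 14 Eph receptors, 7 were lower in tumors, 3 were higher and 4 did not pass. Epha10 (chr4:124880899-124917800), which lacks kinase activity, ran from 10.2 through a median of 27.9 to 38.4 CPM in transgene-free ganglia and was at 0.660, 1.27, 0.749 and 1.26 CPM in tumors (log2 fold change ± SE of -4.74 ± 0.43, adjusted p = 1.6e-06). Ephb6 (chr6:41605482-41620509), the other receptor of the family without an active kinase, ran from 33.9 through a median of 62.1 to 84.6 CPM in ganglia and was at 12.2, 1.53, 3.32 and 5.48 CPM in tumors (log2 fold change ± SE of -3.46 ± 0.48, adjusted p = 3.1e-05). Both kinase-inactive receptors were thus lower with no overlap. Ephb4 (chr5:137350109-137378669), the venous endothelial receptor of ephrin B2, ran from 20.7 through a median of 38.9 to 99.9 CPM in ganglia and was at 7.22, 16.2, 8.99 and 8.28 CPM in tumors (log2 fold change ± SE of -2.08 ± 0.43, adjusted p = 0.00082), beside endothelial marker sums of 56.6 to 581 and 36.7 to 95.2 TPM (56.6 to 339 TPM in ganglia without transgene-free wild-type replicate 2). The exons of Ephb4 and Epha10 overlap genes on the opposite strand that are in the count table (Zan and 1700125G02Rik), and the strand setting of the counting is not given in the sources used here. Epha2, Epha3, Epha5 and Ephb3 were also lower (log2 fold changes from -2.58 to -0.98).

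Epha7, Ephb1 and Ephb2 were the Eph receptors higher in tumors. Epha7 (chr4:28813131-28967499), an ephrin A receptor, was at 113, 123, 53.5 and 31.5 CPM in tumors against 9.36 to 21.9 CPM in transgene-free ganglia (log2 fold change ± SE of 2.38 ± 0.44, adjusted p = 0.00036). Ephb1 (chr9:101922128-102354693) was at 4.50, 21.1, 8.35 and 5.53 CPM against 0.780 to 4.27 CPM (log2 fold change ± SE of 1.96 ± 0.43, adjusted p = 0.0013), with tumor replicate 1 just above the highest transgene-free ganglion in CPM. Ephb2 (chr4:136647539-136835988), an ephrin B receptor, was at 61.9, 103, 69.5 and 93.6 CPM against 30.1 to 59.2 CPM (log2 fold change ± SE of 0.73 ± 0.20, adjusted p = 0.0057), and this did not pass on log2(TPM + 1), at 0.28 (adjusted p = 0.25). In TPM each of these genes overlapped between the groups. The lowest tumor was at 8.56 TPM for Epha7, 1.77 for Ephb1 and 23.43 for Ephb2. The highest transgene-free ganglion was at 9.14, 2.29 and 30.51 TPM. Epha1, Epha4, Epha6 and Epha8 did not pass; Epha6 had 0 reads in tumor replicates 2 and 3 and 162 and 113 in replicates 1 and 4.

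Of 8 ephrins, 3 were higher, 2 were lower and 3 did not pass. Efnb3 (chr11:69554092-69560205), a B ephrin that stops axons at the midline, was at 41.5, 61.9, 54.1 and 54.7 CPM in tumors and ran from 6.16 through a median of 10.3 to 19.6 CPM in transgene-free ganglia (log2 fold change ± SE of 2.21 ± 0.27, adjusted p = 1.2e-05). Efna2 (chr10:80179482-80190010), an A ephrin, was at 20.0, 12.2, 10.4 and 19.5 CPM in tumors against 4.31 to 8.24 CPM (log2 fold change ± SE of 1.48 ± 0.29, adjusted p = 0.00053). Neither overlapped in CPM, whereas Efna4 was higher (2.30) with overlap. In TPM, Efna2 overlapped, at 10.24 in transgene-free wild-type replicate 1 and 9.89 in tumor replicate 3. Efna5 (chr17:62604184-62881317), a repellent A ephrin, was lower at 67.2, 33.4, 27.3 and 42.8 CPM against 86.5 to 212 CPM (log2 fold change ± SE of -1.91 ± 0.25, adjusted p = 2.1e-05). Efnb1 (chrX:99136130-99148991), an X-linked B ephrin of neural crest, was lower at 17.9, 21.2, 13.2 and 20.3 CPM against 30.4 to 51.2 CPM (log2 fold change ± SE of -1.15 ± 0.16, adjusted p = 3.2e-05). The ratio of Efnb3 to Efnb1 in TPM was 0.138 to 0.400 in transgene-free ganglia and 2.43 to 4.31 in tumors. Efna1, Efna3 and Efnb2 did not pass.

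The Slits and Robos were the family without a lower call: 4 of 6 were higher in tumors and 2 (Slit3 and Robo4) did not pass. Slit1 (chr19:41600257-41743665) was at 41.4, 24.9, 17.1 and 92.1 CPM in tumors and ran from 1.00 through a median of 2.12 to 5.60 CPM in transgene-free ganglia, a 17.7-fold difference (log2 fold change ± SE of 4.14 ± 0.76, adjusted p = 0.00031). Slit2 (chr5:47983138-48307733) was at 459, 291, 254 and 226 CPM in tumors and ran from 11.0 through a median of 29.4 to 39.3 CPM in ganglia, a 10.7-fold difference (log2 fold change ± SE of 3.42 ± 0.46, adjusted p = 2.4e-05). For both ligands every tumor exceeded every transgene-free ganglion. Slit3 was at 23.6, 129, 116 and 164 CPM in tumors and ran from 112 through a median of 168 to 188 CPM in ganglia (log2 fold change ± SE of -0.57 ± 0.36, adjusted p = 0.19). Hence the ratio of Slit1 plus Slit2 to Slit3 in TPM was 0.0657 to 0.156 in transgene-free ganglia and 1.33 to 12.8 in tumors, the upper end coming from tumor replicate 1, where Slit3 was low.

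Robo2 (chr16:73891839-74411825), a Slit receptor, was at 52.0, 61.1, 78.8 and 128 CPM in tumors and ran from 7.12 through a median of 12.3 to 33.3 CPM in transgene-free ganglia (log2 fold change ± SE of 2.52 ± 0.48, adjusted p = 0.00039). Robo1 (chr16:72308306-73046095) was at 24.1, 53.1, 57.3 and 60.4 CPM against 10.4 to 45.1 CPM, with overlap (log2 fold change ± SE of 0.91 ± 0.33, adjusted p = 0.028). Its call was lost without transgene-free het replicate 1 or 4 or tumor replicate 2, 3 or 4, with a log2 fold change between 0.79 and 0.89. The call was also lost with a sex term (0.85, adjusted p = 0.055), with only the groups compared (0.92, adjusted p = 0.053) and on log2(TPM + 1) (0.46, adjusted p = 0.21) and log2(TPM + 0.1) (0.51, adjusted p = 0.22). Robo4, the endothelial Robo, had a log2 fold change of -1.20 ± 0.53, adjusted p = 0.063.

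Of the 8 netrins and netrin receptors tested, 3 were lower, 1 was higher and 4 did not pass. Ntn1 (chr11:68209364-68400823), the netrin that attracts through Dcc, was at 3.11, 3.50, 4.14 and 6.12 CPM in tumors and ran from 12.0 through a median of 28.3 to 61.3 CPM in transgene-free ganglia (log2 fold change ± SE of -2.82 ± 0.48, adjusted p = 0.00016). Unc5b (chr10:60762593-60831581), a repulsive netrin receptor, was at 5.47, 17.9, 10.1 and 23.0 CPM in tumors against 61.2 to 78.0 CPM (log2 fold change ± SE of -2.28 ± 0.33, adjusted p = 4.5e-05). Unc5a (chr13:54949411-55006018), of the same class, was at 5.55, 20.1, 24.2 and 28.7 CPM against 43.7 to 97.0 CPM (log2 fold change ± SE of -1.94 ± 0.37, adjusted p = 0.00046), and its exons overlap Hk3 on the opposite strand. These 3 did not overlap between the groups. Ntn3 (chr17:24203848-24209531) was higher, at 15.8, 28.6, 33.7 and 37.2 CPM in tumors against 5.90 to 13.1 CPM (log2 fold change ± SE of 1.41 ± 0.24, adjusted p = 0.00018), and its exons overlap Tbc1d24 on the same strand, so reads there could be assigned to either gene. In TPM, Ntn3 overlapped between the groups, at 6.69 in the highest transgene-free ganglion and 5.93 in the lowest tumor.

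Dcc (chr18:71253634-72351069), the attractive netrin receptor, split the tumors: it was at 85.8, 10.6, 9.31 and 62.7 CPM in replicates 1 to 4 and ran from 13.7 through a median of 27.4 to 43.4 CPM in transgene-free ganglia (log2 fold change ± SE of 0.60 ± 0.56, adjusted p = 0.37). Tumors 1 and 4 lay above all 7 ganglia and tumors 2 and 3 below them. Ntn4, Unc5c and Unc5d did not pass. Ntn5 had at most 2 reads in any tumor, and Plxna4os1 had a log2 fold change of 0.14 ± 0.55, adjusted p = 0.84.

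The downstream and neighboring genes of these pathways moved in both directions as well. Of 42 intracellular mediators, such as kinases, guanine nucleotide exchange factors and cytoskeletal effectors, 10 were higher and 21 lower in tumors, with a median log2 fold change of -0.42, where 30.6% of all genes were higher and 30.9% lower. The largest rises were those of Ngef, an exchange factor under Eph receptors (1.29 ± 0.37, adjusted p = 0.0078), the kinase Abl1 (1.14 ± 0.15, adjusted p = 2.1e-05) and Trio, an exchange factor under Dcc (1.09 ± 0.15, adjusted p = 3.5e-05). Ablim1 (-4.82 ± 0.36, adjusted p = 5.1e-07) and Ablim3 (-3.99 ± 0.52, adjusted p = 1.9e-05), which bind actin, were among those that fell. Of 23 other guidance ligands, receptors and co-receptors, 7 were higher and 11 lower, with a median of -0.75. Dscaml1 (4.90 ± 0.79, adjusted p = 0.0001), Bmp7 (4.00 ± 1.04, adjusted p = 0.0042) and Dscam (3.60 ± 0.42, adjusted p = 9.1e-06) led the rises, although tumor replicate 1 held only 0.505 CPM of Dscaml1 and 0.116 CPM of Bmp7. Chl1, an L1-family adhesion molecule, was at 189 to 693 CPM in transgene-free ganglia and at 8.43, 3.50, 0.892 and 6.85 CPM in tumors (-6.62 ± 0.64, adjusted p = 2.3e-06), and the chemokine receptor Cxcr4 (-3.44 ± 0.27, adjusted p = 7.0e-07) and the adhesion protein Flrt1 (-3.22 ± 0.43, adjusted p = 2.2e-05) were the next lower. Against Runx1t1 wild-type MYCN ganglia, 2 mediators were higher in tumors and 15 lower, and 3 of the other guidance genes were higher and 11 lower. Against het MYCN ganglia these counts were 5 and 18, and 4 and 11. edgeR called 14.0% and 20.5% of all genes in the first of these comparisons and 22.0% and 23.5% in the second. In the 6 comparisons among ganglia it called 0 genes of either list, where its calls among all genes ran from 0% to 0.834% higher and 0.102% lower. At an unadjusted p under 0.05 there were 7 mediators and 5 other guidance genes for MYCN within the Runx1t1 wild-type label, where 19.8% of all genes were, 6 and 3 by Runx1t1 label in MYCN ganglia (12.6% of all genes), 2 and 5 for all MYCN ganglia (9.44%), 3 and 2 for the interaction (5.62%), 1 and 0 by Runx1t1 label in transgene-free ganglia (4.12%), and 0 of both for MYCN within the het label (1.45%). limma called 0 genes of either list, and DESeq2 called 3 of each list for MYCN within the Runx1t1 wild-type label, where it called 8.45% of genes, 1 other guidance gene by Runx1t1 label in MYCN ganglia, where it called 1.89%, and 0 in the other 4 comparisons.

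The tumors were also compared with each group of MYCN ganglia, and since these comparisons share the tumors, their values are given side by side. Against the 3 MYCN ganglia labelled Runx1t1 wild-type, 5 members were higher in tumors and 25 lower, where 14.0% and 20.5% of all genes were called. Against the 2 Runx1t1 het MYCN ganglia, 9 were higher and 23 lower, where 22.0% and 23.5% of all genes were called, and on log2(TPM + 1) this split was 4 and 29, where limma called 13.4% and 34.5% of all genes. The lower calls of largest size were again Plxnb3 (-6.78 and -6.98), Sema3b (-5.27 and -5.48), Epha10 (-4.16 and -4.66), Sema3e (-3.54 and -3.96) and Sema3d (-3.02 and -3.74). For each of these 5 genes every MYCN ganglion lay above every tumor. The lowest MYCN library was each time wild-type replicate 1, at 8.62 CPM for Plxnb3, 39.7 for Sema3b, 8.90 for Epha10, 4.22 for Sema3e and 3.85 for Sema3d. Among the MYCN ganglia this library had the lowest glial (552 TPM), fibroblast (991 TPM) and sympathetic neuron (10617 TPM) marker sums. Its cell cycle sum was the highest (915 TPM). The part of these sums in the values was not tested.

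Among the higher calls against Runx1t1 wild-type MYCN ganglia were the 5 genes Robo1 (1.89 ± 0.44, adjusted p = 0.0047), Robo2 (1.82 ± 0.62, adjusted p = 0.035), Ntn3 (1.08 ± 0.31, adjusted p = 0.015), Plxnb2 (0.98 ± 0.29, adjusted p = 0.017) and Plxna1 (0.52 ± 0.16, adjusted p = 0.02). Robo1 kept its call under every alternative run. The calls of Robo2, Ntn3, Plxnb2 and Plxna1 were lost without MYCN replicate 3 and without MYCN replicate 4 of this group, with adjusted p from 0.054 to 0.13. The Robo2 call was also lost without tumor replicate 3 (adjusted p = 0.052) or 4 (adjusted p = 0.09), and that of Plxna1 without tumor replicate 2 (0.40, adjusted p = 0.063). With only the groups compared, Robo2, Ntn3 and Plxna1 did not pass, nor did Robo2 and Plxna1 with a replicate block. On log2(TPM + 1), Plxna1 was at 0.14 (adjusted p = 0.42) and Ntn3 at 0.60 (adjusted p = 0.11). Robo1 was at 13.8, 12.6 and 13.2 CPM in these ganglia and at 16.4 and 12.7 CPM in those labelled het, all below every tumor. Against the ganglia labelled het, the 5 largest higher calls were Ephb1 (3.29 ± 0.74, adjusted p = 0.0026), Slit2 (2.54 ± 0.71, adjusted p = 0.01), Efna4 (2.28 ± 0.82, adjusted p = 0.036), Robo1 (1.74 ± 0.51, adjusted p = 0.012) and Efnb3 (1.69 ± 0.41, adjusted p = 0.0046). Without het replicate 1, Slit2 (2.11, adjusted p = 0.12), Efnb3 (1.38, adjusted p = 0.08), Efna4 (2.08, adjusted p = 0.2) and Robo1 (1.94, adjusted p = 0.066) did not pass, nor did Efna4 (2.52, adjusted p = 0.12) and Robo1 (1.57, adjusted p = 0.1) without het replicate 2. Efna4 also fell short without tumor replicate 4 (1.75, adjusted p = 0.087), with a replicate block (1.78, adjusted p = 0.11) and with a depth term (2.12, adjusted p = 0.11). On log2(TPM + 1), Efna4 was at 1.08 (adjusted p = 0.081) and Robo1 at 1.05 (adjusted p = 0.057), and neither passed on log2(TPM + 0.1).

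The effect of MYCN by 2 weeks was examined within the Runx1t1 wild-type label, as 3 MYCN against 4 transgene-free ganglia. Slit1, Slit2 and Efnb3 were higher and Plxnc1 was lower, where edgeR called 0.834% of all genes higher and 0.102% lower. Slit1 was at 133, 7.06 and 42.6 CPM in MYCN replicates 1, 3 and 4 and at 5.60, 1.04, 2.12 and 1.00 CPM in transgene-free replicates 1 to 4 (log2 fold change ± SE of 4.66 ± 0.98, adjusted p = 0.045). Slit2 was at 345, 40.3 and 153 CPM against 39.3, 11.0, 29.4 and 26.4 CPM (log2 fold change ± SE of 2.76 ± 0.57, adjusted p = 0.043). In both Slits the groups were apart, but MYCN replicate 3 lay just above the highest transgene-free library and replicate 1 was the highest. Efnb3 was at 47.0, 26.2 and 44.4 CPM against 9.67, 6.16, 19.6 and 12.8 CPM (log2 fold change ± SE of 1.69 ± 0.34, adjusted p = 0.04). Plxnc1 was at 65.3, 75.4 and 70.6 CPM against 144, 132, 109.9 and 143 CPM (log2 fold change ± SE of -0.91 ± 0.16, adjusted p = 0.035), a 1.88-fold difference with all 3 MYCN libraries close together. In CPM, 9 members in all lay above without overlap and 2 below, against 4.72% and 4.45% of all genes.

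These 4 calls sat near the threshold. All 4 were lost when MYCN replicate 1 or 4, any of transgene-free wild-type replicates 1, 3 and 4, any transgene-free het library or tumor replicate 2 or 3 was left out, and 1 call remained without tumor replicate 4. Without MYCN replicate 3 the count rose to 11. DESeq2 also called 11 members, where it called 8.45% of genes. The count was 0 with limma on either TPM scale, with a replicate block, with a fit restricted to the compared groups and with only libraries of 20000000 counts or more (chosen after seeing the data), and 1 with a sex term. The log2 fold changes without MYCN replicate 1 were 3.38 (adjusted p = 0.31) for Slit1, 1.86 (adjusted p = 0.32) for Slit2, 1.54 (adjusted p = 0.26) for Efnb3 and -0.86 (adjusted p = 0.23) for Plxnc1. The cell cycle marker sum differed in the same order among the MYCN libraries, at 915, 67.0 and 439.6 TPM in replicates 1, 3 and 4 against 32.9 to 201 TPM in transgene-free wild-type ganglia, with 0 of 5 markers called. The 201 TPM was that of transgene-free wild-type replicate 2, and the other 3 libraries, at 32.9 to 48.1 TPM, lay below all 3 MYCN libraries. This sum's part in the Slit values was not tested.

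**Figure D4:**
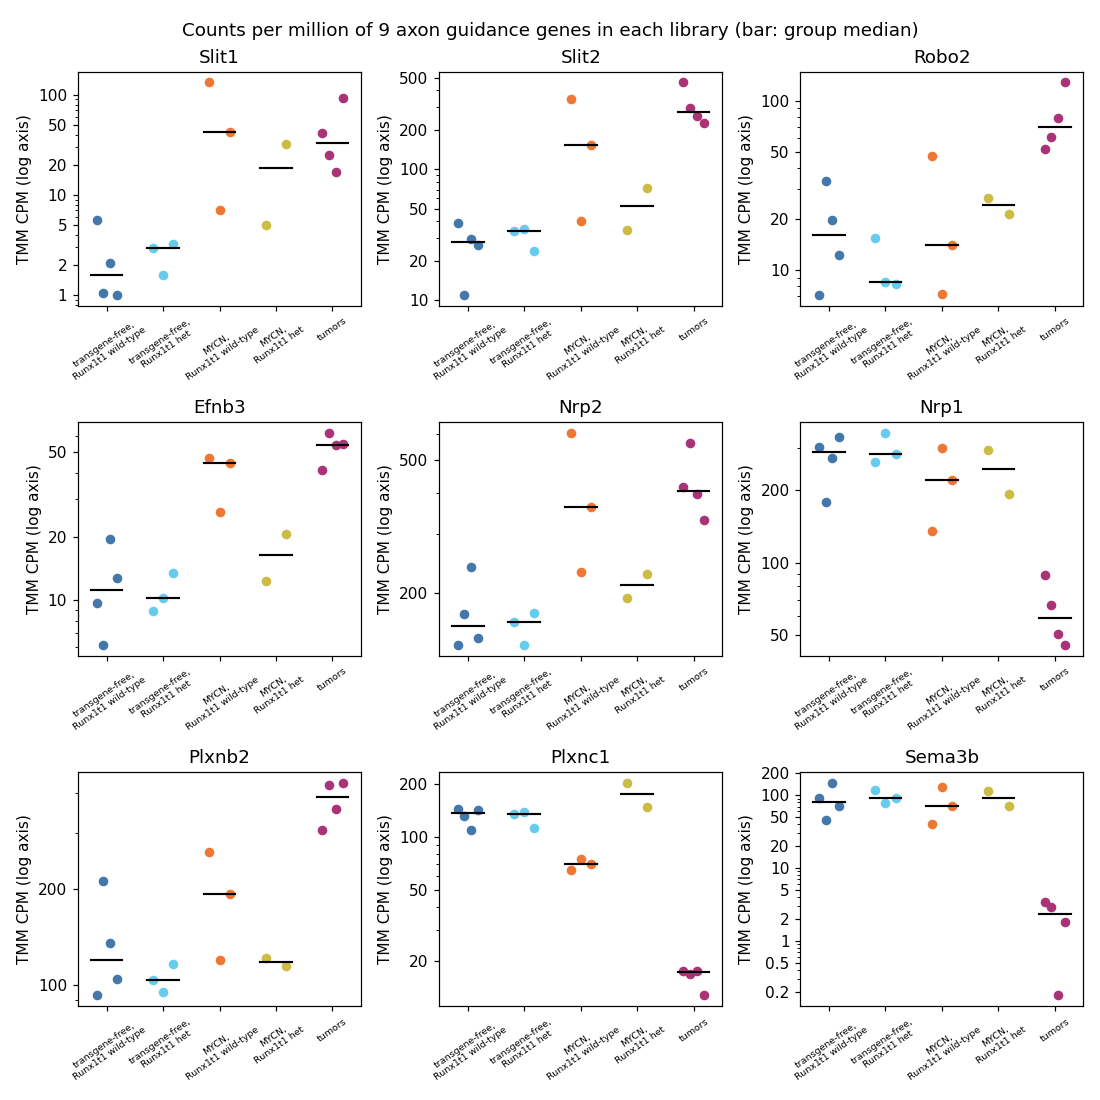
TMM-scaled CPM on log axes for 9 genes, with 1 point per library in 5 groups and a bar at the group median. Among Runx1t1 wild-type MYCN ganglia, Slit1, Efnb3 and Nrp2 reach the tumor range in replicates 1 and 4, and Slit2 in replicate 1, whereas Sema3b and Nrp1 stay above the tumors in all ganglia; Plxnc1 lies at 65.3 to 75.4 CPM in these ganglia, below all other ganglia and above all tumors.

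With Runx1t1 labelled het on both sides (2 MYCN against 3 transgene-free ganglia), edgeR called 0 members and 0% of all genes, with 3 members at an unadjusted p under 0.05, where 1.45% of all genes were, and DESeq2 and limma also called 0. The 3 were Slit1 (2.84), Ephb1 (-1.85) and Plxnc1 (0.45). Slit1 was at 5.0 and 31.9 CPM in MYCN het replicates 1 and 2 and at 2.96, 1.57 and 3.24 CPM in the transgene-free het ganglia, and Slit2 at 34.4 and 71.4 against 33.6, 35.3 and 23.9 CPM. Replicate 2, whose cell cycle sum was 177 TPM against 48.2 TPM in replicate 1, held the higher value of each. All 5 MYCN against all 7 transgene-free ganglia gave 0 calls among members and 0.0420% among all genes in edgeR, with 10 members at an unadjusted p under 0.05 against 9.44% of all genes, while DESeq2 called 5 members and 2.29% of the genes to which it gave an adjusted p, and limma called 0 members. The smallest adjusted p was that of Slit1 (3.75 ± 0.73, adjusted p = 0.076). The count was 6 without MYCN wild-type replicate 3 and 2 without transgene-free wild-type replicate 2.

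The last question was whether the Runx1t1 label changed these genes. In MYCN ganglia, het against wild-type, Plxnc1 alone passed, where edgeR called 0.0120% of all genes. It was at 203 and 148 CPM in the het libraries and at 65.3, 75.4 and 70.6 CPM in the wild-type ones (log2 fold change ± SE of 1.32 ± 0.18, adjusted p = 0.045), with no overlap. With only 2 het libraries the call was fragile: it was lost when any of these 2, MYCN wild-type replicate 1 or 4, transgene-free wild-type replicate 1, 2 or 4, any transgene-free het library or tumor replicate 2 or 3 was left out, although the log2 fold change stayed between 1.05 and 1.52. It was also lost with upper-quartile scaling, no count filter, limma on log2(TPM + 0.1), a replicate block, a depth or sex term, a fit restricted to the compared groups, and without the ribosomal gene Rn45s (chosen after seeing the data). DESeq2 called 2 members, where it called 1.89% of genes. At an unadjusted p under 0.05 there were 11 members, against 12.6% of all genes. Unc5a (1.14) and Unc5b (1.26) were on the higher side with Plxnc1, and Ephb1 (-2.56), Slit2 (-1.76), Efnb3 (-1.25) and Nrp2 (-0.93) on the lower side, none past the adjusted threshold. Some marker sums differed between the same libraries without overlap, with 0 markers of these lists called: sympathetic neuron markers were at 21603 to 24224 TPM in het and 10617 to 18433 TPM in wild-type MYCN ganglia, adrenal cortex markers at 9.95 to 23.2 and 5.90 to 7.46 TPM, and skeletal muscle markers at 8.99 to 13.8 and 22.3 to 143 TPM. The other marker lists overlapped, and with so few libraries such separation can arise by chance. The part of these sums in the Plxnc1 call was not tested.

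In transgene-free ganglia, het against wild-type, edgeR called 0 members and 0% of all genes, and DESeq2 and limma also 0. Only Sema3f reached an unadjusted p under 0.05 (-1.14, adjusted p = 0.99), against 4.12% of all genes. Plxnc1 was at 135, 139 and 113 CPM with the het label and 144, 132, 109.9 and 143 CPM without it (-0.04 ± 0.16, adjusted p = 1). The test of whether the MYCN effect differed by Runx1t1 label called 0 members and 0% of genes in edgeR, with 5 members at an unadjusted p under 0.05 against 5.62% of all genes. DESeq2 called 2 members, where it called 0.192% of genes, and limma called 0. Plxnc1 had the smallest adjusted p of these (1.36 ± 0.24, adjusted p = 0.3).

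Promoter sequence was read to see whether the genes that moved share the E-box CACGTG, the palindrome that MYC-family proteins bind with Max, or CATCTG, an E-box of neurogenic bHLH factors, searched on both strands (the latter also as its complement CAGATG). RefSeq (GRCm38.p6) gave 74 promoters, each from 250 bases before to 50 after a transcription start, for 58 of the 69 members. CACGTG was in 5 of the 74 (6.8%) and in 7.2% of all 32851 promoters, and CATCTG was in 5 (6.8%) against 17.2% of all, in windows that held a median of 19.5 CpG against 7 in all promoters. The 4 printed here are those of Slit2 and Plxnc1, which passed in MYCN ganglia, and of Robo2 and Sema3e, higher and lower in tumors, which hold CACGTG, given in capitals. They lie at chr5:47982905-47983204 (plus strand), chr10:94944796-94945095 (minus), chr16:75447244-75447543 (minus, at the most upstream of 3 Robo2 starts) and chr5:14025026-14025325 (plus).
Slit2: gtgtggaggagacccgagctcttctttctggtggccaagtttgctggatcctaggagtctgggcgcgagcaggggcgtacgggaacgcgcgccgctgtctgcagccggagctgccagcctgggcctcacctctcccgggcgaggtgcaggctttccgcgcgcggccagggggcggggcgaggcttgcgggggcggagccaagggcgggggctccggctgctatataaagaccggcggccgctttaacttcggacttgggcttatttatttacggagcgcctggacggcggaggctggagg
Plxnc1: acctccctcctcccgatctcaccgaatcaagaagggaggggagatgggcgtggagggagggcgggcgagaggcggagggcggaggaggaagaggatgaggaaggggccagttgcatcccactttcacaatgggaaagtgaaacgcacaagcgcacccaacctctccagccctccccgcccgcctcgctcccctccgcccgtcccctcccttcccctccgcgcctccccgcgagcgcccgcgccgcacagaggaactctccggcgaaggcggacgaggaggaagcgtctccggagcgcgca
Robo2: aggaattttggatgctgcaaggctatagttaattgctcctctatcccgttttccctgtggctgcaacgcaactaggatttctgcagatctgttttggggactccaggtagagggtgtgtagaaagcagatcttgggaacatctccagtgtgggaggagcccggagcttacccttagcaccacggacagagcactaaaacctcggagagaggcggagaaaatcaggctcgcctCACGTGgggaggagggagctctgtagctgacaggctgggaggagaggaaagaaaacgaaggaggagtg
Sema3e: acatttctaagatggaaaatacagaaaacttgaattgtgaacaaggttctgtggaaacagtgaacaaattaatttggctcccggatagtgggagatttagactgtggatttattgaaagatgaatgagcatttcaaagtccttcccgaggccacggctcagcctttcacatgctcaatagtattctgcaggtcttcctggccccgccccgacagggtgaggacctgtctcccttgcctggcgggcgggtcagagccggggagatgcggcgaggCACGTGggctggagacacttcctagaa

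The Robo2 match begins 18 bases before its start and the Sema3e match 23 bases after its own. This Robo2 start lies upstream of, and outside, the gene interval given above, and the windows at the other 2 Robo2 starts, one of them at the 5′ end of that interval, hold no CACGTG. The other 3 members with CACGTG were Epha8, Sema4b and Sema6d, of which Sema4b and Sema6d were lower in tumors and Epha8 did not pass. Of the 5 members with the motif, 1 was higher and 3 were lower in tumors, where 30.6% and 30.9% of all genes were. The Slit2 and Plxnc1 windows held neither motif. A match describes letters in the window and not binding, and these 300 bases leave out any more distant element.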

How the data were processed

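RNA was measured by stranded total RNA-seq (the labels name polyA RNA) in 16 libraries of 5 groups, grouped by the labels; in the column headers "Hom" was read as homozygous wild type for Runx1t1. Per the authors' methods, STAR two-pass alignment to mm10 and RSEM gave, for each gene and library, the deposited expected counts, without normalization, and the deposited TPM; the annotation and strand setting are not given in the sources used here. No column of the tables was left unmapped.

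Expected counts were rounded to whole numbers and tested in R 4.3.3 with edgeR 4.0.16: TMM scaling, filterByExpr by group, 1 quasi-likelihood fit over all 16 libraries, 9 contrasts and Benjamini-Hochberg adjustment over 16665 genes, with a threshold of 0.05. All adjusted p in the text come from this edgeR fit unless another tool is named. DESeq2 1.42.0, and limma 3.58.1 on log2(TPM + 1) and log2(TPM + 0.1), were alternatives, beside 2 other scalings, 2 count filters, terms for replicate, depth and sex (read from Y-linked expression), only the groups compared, and each library left out. The edgeR script was tested on simulated counts. CPM compares a gene between libraries and TPM compares genes. Log2 fold changes are of the first group named over the second. Descriptions used Python 3.11.15 with pandas 2.3.3.

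The members, the lists of related genes and the marker lists were chosen with earlier results of these data known. Named in full were, per family, up to 3 genes higher and 3 lower in tumors, past the threshold, with a mean of at least 1 TPM in the higher group and no overlap between tumors and transgene-free ganglia; in the other comparisons up to 5 called genes in each direction; the 10 highest by mean TPM (levels only); up to 3 related genes in each direction; and 12 preset genes (Sema3a, Sema3f, Nrp1, Nrp2, Plxna3, Plxna4, Efnb1, Ephb2, Ntn1, Dcc, Plxnc1, Sema7a). Values of other members were added after they were seen. Some genes that this rule names are not reported here. Positions are from GENCODE vM21 (GRCm38, which is mm10) and promoters from RefSeq GRCm38.p6. Depth was 10692299 to 38618757 counts a library.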

Additional observations from a re-analysis of the deposited data

Results flagged for a closer look

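In all, 5 values lay far from the other libraries of their group of 4, with a gap to the nearest library of more than 0.829 of the group's range. Among 68 groups examined, those of the genes named in full, chance alone would mark about 1 in 20. Efna2 was at 8.24 CPM in transgene-free wild-type replicate 1 and at 5.11 to 5.43 CPM in the other 3 libraries. Plxna4 was at 358 CPM in tumor replicate 1 and at 152 to 174 CPM in the other tumors. Plxnc1 was at 12.7 CPM in tumor replicate 4 and at 16.9 to 17.5 CPM in the others. Sema3a stood apart in both groups, at 16.1 CPM in transgene-free wild-type replicate 2 against 0.207 to 1.34 CPM, and at 58.2 CPM in tumor replicate 4 against 7.38 to 14.5 CPM.

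For 4 of the 68 members tested, all MYCN libraries of one Runx1t1 label lay above in CPM, and all of the other label below, the transgene-free libraries of their own label. In TPM the same 4 and Unc5b did so. Only members were examined in this way, so these counts cannot be set against a share of all genes. Ephb1 had a MYCN log2 fold change of 1.76 with the wild-type label and -1.85 with the het label, at 8.16, 4.73 and 5.11 and 0.634 and 1.39 CPM in the MYCN libraries. The interaction was -3.61 (edgeR adjusted p = 0.85). Plxnc1 had -0.91 and 0.45, with an interaction of 1.36 (edgeR adjusted p = 0.3). Efnb2 had 0.70 and -0.37, with an interaction of -1.07 (edgeR adjusted p = 0.85), and Sema6a 0.63 and -0.26, with -0.89 (edgeR adjusted p = 0.85). Unc5b had an interaction of 1.31 (edgeR adjusted p = 0.85). None of these 5 interactions passed the threshold over all genes.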

How the results depend on the processing

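Of 59 reported results, 40 kept their direction and their side of the threshold under every alternative run, and of 1686 alternative values 1541 kept both, 133 lost the call, 5 gained one and 7 turned sign. The count of members called in tumors against transgene-free ganglia was 44, and 39 to 48 with 1 library left out; the counts were 20 to 32 against Runx1t1 wild-type and 22 to 37 against het MYCN ganglia. For all MYCN against transgene-free ganglia, 0 members became 5 in DESeq2 and 0 to 6 with a library left out. Among Runx1t1 wild-type ganglia, the 4 MYCN calls became 11 in DESeq2, 1 with a sex term, and 0 with limma on either TPM scale, with only the groups compared, and with only libraries of 20000000 counts or more (added after seeing the data), and ranged from 0 to 11 with a library left out. In MYCN ganglia by Runx1t1 label, the 1 call became 2 in DESeq2 and 0 with upper-quartile scaling, no count filter, limma on log2(TPM + 0.1), a depth term, a sex term, only the groups compared, or without the ribosomal gene Rn45s (added after seeing the data), and ranged from 0 to 2 with a library left out. The interaction count of 0 became 2 in DESeq2. The cause was not tested in any of these. In the 4 comparisons with a DESeq2 count, in order, DESeq2 called 2.29%, 8.45%, 1.89% and 0.192% of the genes given an adjusted p. Over all groups, replicate numbers did not pair the libraries: 7 of 25 same-numbered pairs had r over 0.1 (range -0.27 to 0.31) and 5 of 16 libraries correlated best with their own number. Every same-numbered pair of transgene-free wild-type ganglia and tumors was among the 7, at 0.157, 0.308, 0.221 and 0.149 for replicates 1 to 4. A replicate block gave 0 in place of the 4 MYCN calls and 0 in place of the Runx1t1 call. In tumors against transgene-free ganglia, Dcc turned from 0.60 to -0.22 and -0.35 with limma on log2(TPM + 1) and log2(TPM + 0.1), and ranged from -0.011 to 0.93 with a library left out; Plxna3 turned from -0.09 to 0.0010 with the replicate block and 0.089 with a sex term, and ranged from -0.21 to 0.018 with a library left out. Neither passed the threshold in these. Depth limits Ntn5, at 0 to 14 reads a library, and tumor Plxnb3, at 1 to 13 reads.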

Other observations

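The remaining marker lists gave these summed levels in transgene-free ganglia and in tumors. Macrophage markers were at 46.8 to 2127 and 323 to 1011 TPM. Without transgene-free wild-type replicate 2 the first range was 46.8 to 185 TPM, below every tumor. Chromaffin cell markers were at 344 to 1313 TPM (816 to 1313 TPM without that replicate) and 563 to 1850.1 TPM, and smooth muscle and pericyte markers at 80.3 to 436 and 33.7 to 197 TPM. Lymphocyte markers in tumors were at 0.250 to 4.32 TPM. Adrenal cortex markers were at 4.79 to 33.0 TPM (6.48 to 33.0 TPM without transgene-free wild-type replicate 2) and 3.02 to 5.37 TPM, fat markers at 222 to 1851 and 58.2 to 203 TPM, skeletal muscle markers at 9.13 to 179 and 3.26 to 16.7 TPM, and erythroid markers at 929 to 9120.3 and 2716 to 14410.5 TPM.

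Ratios between members of a family differed among the MYCN ganglia. Within a library, the TPM ratio of Slit1 plus Slit2 to Slit3 was 1.79, 0.287 and 0.996 in Runx1t1 wild-type MYCN replicates 1, 3 and 4 and 0.107 and 0.369 in het replicates 1 and 2, against at most 0.156 in transgene-free ganglia. The ratio of Ntn3 to Ntn1 was 2.62, 0.433 and 0.492 in the wild-type and 0.344 and 0.698 in the het libraries, against 0.193 to 1.30 in transgene-free ganglia and 5.99 to 9.62 in tumors. Epha7 over Epha5 was 0.552, 0.0628 and 0.223 in the wild-type and 0.136 and 0.218 in the het libraries, against 0.0844 to 0.173 and 0.747 to 2.44. Het replicate 1 lay inside the transgene-free range for all 3 ratios. These ratios were not tested.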
